A study of Mus musculus with 2 samples.

Results

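H3K4me1 regions were described in 4 windows of the mouse genome (build mm9), each laid around the gene of a transcription factor of lymphoid progenitors: Myb, Runx1, Lef1 and Bcl11a. The members were all regions of the deposited list that overlapped a window, and 87 of 48130 regions did so: 24 in the Myb window, 31 in the Runx1 window, 11 in the Lef1 window and 21 in the Bcl11a window. The windows were given as coordinates around the genes and not by a cut on a measured value. They were chosen with earlier results of these data known, and each is reported on its own. The 4 windows together held 316.8 kb of H3K4me1.

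The cells were pre-B cells from the bone marrow of C57BL/6 (B6) mice of genotype RAG1-/- that carried a rearranged IgM transgene (source name RAG-/-µ+), of both sexes and 6 to 14 weeks old. The ChIP library was immunoprecipitated with an antibody to H3K4me1, histone H3 monomethylated at lysine 4. The other library was input DNA of the same kind of cells, made without antibody, and entered only where the authors called regions against it. All the cells therefore lacked Rag1, and the sources used here do not say how many mice stood behind a library. There was 1 library per group, so no spread between replicates could be measured and no p-value is given. Per the file header, 50945360 tags made up the depth of the antibody library. The list holds no expression values, so the cell label was not checked against marker transcripts here.

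H3K4me1 marks enhancers, active or poised, and the flanks of active promoters, and it usually dips where a promoter or enhancer core is free of nucleosomes. Genes that set cell identity often carry many such stretches over long distances. Myb is needed for lymphoid progenitors to form B and T cells and is shut down as blood cells mature; in human cells, enhancers between HBS1L and MYB drive it in red cell precursors. Runx1 is a DNA-binding core factor of definitive blood formation, and its gene is read from a distal and a proximal promoter. Lef1 is an HMG-box factor that works with beta-catenin in Wnt signalling and is expressed in early B cell precursors. Bcl11a is a zinc-finger repressor required for B cell development. In human red cell precursors it is known for silencing fetal globin, and an enhancer within its intron drives the gene there.

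The promoters of the 4 genes are shown because each window was laid around its gene and H3K4me1 flanks active starts. RefSeq held 1 start for Myb, 2 for Runx1, 4 for Lef1 and 1 for Bcl11a. The sequences are the 250 bases before a start, from RefSeq on GRCm38.p6, which is a different build from the mm9 regions. GRCm38.p6 positions are not comparable with the mm9 positions of the regions, even where the numbers look alike, and no start was placed on a region. Each sequence is in lower case, with matches to the core motifs of the 4 factors in capitals, and runs in the direction of transcription. For Lef1, starts 1 and 4 are shown, since start 2 lies close to start 1 and start 3 had no match. The capitals at the end of Lef1 start 4 are the first bases of a MYB match that runs on past the printed 250.

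Myb, chr10:21160985-21161234, minus strand: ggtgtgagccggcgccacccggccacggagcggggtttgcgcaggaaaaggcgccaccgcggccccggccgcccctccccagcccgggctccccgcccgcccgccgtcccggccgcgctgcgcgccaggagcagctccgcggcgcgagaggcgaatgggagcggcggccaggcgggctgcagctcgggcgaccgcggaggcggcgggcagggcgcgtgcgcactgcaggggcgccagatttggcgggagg

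Runx1 start 1, chr16:92826075-92826324, minus strand: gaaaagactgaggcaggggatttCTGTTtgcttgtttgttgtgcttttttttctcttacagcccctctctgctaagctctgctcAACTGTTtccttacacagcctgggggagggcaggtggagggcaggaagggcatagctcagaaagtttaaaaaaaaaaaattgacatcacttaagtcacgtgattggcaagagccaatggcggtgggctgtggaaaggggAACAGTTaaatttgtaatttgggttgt

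Runx1 start 2, chr16:92697330-92697579, minus strand: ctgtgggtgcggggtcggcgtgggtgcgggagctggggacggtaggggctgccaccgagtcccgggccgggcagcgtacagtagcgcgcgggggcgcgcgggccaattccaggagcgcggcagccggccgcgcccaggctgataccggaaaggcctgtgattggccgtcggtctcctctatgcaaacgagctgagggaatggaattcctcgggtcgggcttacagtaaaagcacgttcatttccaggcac

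Lef1 start 1, chr3:131110047-131110296, plus strand: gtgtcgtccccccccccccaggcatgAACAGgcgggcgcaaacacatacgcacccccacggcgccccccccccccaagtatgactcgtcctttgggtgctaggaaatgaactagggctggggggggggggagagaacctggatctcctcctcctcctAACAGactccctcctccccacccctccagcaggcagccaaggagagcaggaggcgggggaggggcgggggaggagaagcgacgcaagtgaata

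Lef1 start 4, chr3:131156044-131156293, plus strand: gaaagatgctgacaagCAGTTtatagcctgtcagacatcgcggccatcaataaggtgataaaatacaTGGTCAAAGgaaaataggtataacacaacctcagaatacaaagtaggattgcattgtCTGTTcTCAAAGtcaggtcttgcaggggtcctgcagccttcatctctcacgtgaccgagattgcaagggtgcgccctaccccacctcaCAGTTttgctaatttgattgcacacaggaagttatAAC

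Bcl11a, chr11:24080445-24080694, plus strand: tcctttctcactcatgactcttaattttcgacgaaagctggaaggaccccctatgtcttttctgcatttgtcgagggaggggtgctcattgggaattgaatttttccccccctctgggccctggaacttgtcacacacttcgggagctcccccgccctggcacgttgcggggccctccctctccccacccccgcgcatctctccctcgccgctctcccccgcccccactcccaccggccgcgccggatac

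The motifs were searched on both strands, over the 250 bases before and the 50 after each start. The RUNX core was TGTGGT, the MYB core AACNG, the LEF1 core CTTTGA and the BCL11A core TGACCA. Runx1 start 1, the upstream one of its 2, had 2 RUNX matches and 5 MYB matches, some overlapping. Both RUNX matches lay after the start, at chr16:92826026-92826053 (minus strand), in the stretch ataaacaACCACAgaACCACAagttggg. Lef1 start 4, the one farthest downstream of its 4, also had 5 MYB matches. It had 2 LEF1 matches and 1 BCL11A match, and the BCL11A match overlapped a LEF1 match. No RUNX, LEF1 or BCL11A match was present in the Myb and Bcl11a promoters, in Runx1 start 2 or in Lef1 starts 1, 2 and 3. Of all 32851 mouse promoters, 16.8% held the RUNX core at least 1 time, 16.0% the LEF1 core and 13.6% the BCL11A core. The short MYB core was present in 80.3% of them, and at least 3 times in 27.0%. How many promoters held 2 RUNX, 2 LEF1 or 5 MYB matches was not computed, so these shares are not like for like. A match describes letters only.

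The promoters differed in CpG content. Myb had 40 CpG pairs in its 300 bases, and 3.91% of all promoters had as many or more; Runx1 start 2 had 35, which 6.95% of all promoters reached. Bcl11a had 23 and Lef1 start 1 had 18. Runx1 start 1 had 2, below the median of 7 over all promoters, and Lef1 start 4 had 5.

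The Myb, Bcl11a and Runx1 windows were densely marked, and the Lef1 window was marked far less. Regions covered 40.8% of the Myb window, 35.0% of the Bcl11a window, 26.2% of the Runx1 window and 11.6% of the Lef1 window. Each window was set beside all consecutive tiles of its own size over the 19 autosomes, a description in which tiles are not placed around genes. Tiles of 260 kb had a median cover of 0.958%, and 0.200% of them (19 of 9483) reached the cover of the Myb window. For Bcl11a the median tile of 250 kb was covered to 0.920%, and 0.649% of tiles (64 of 9866) reached its window. For Runx1 the median tile of 350 kb was covered to 1.23%, and 1.48% of tiles (104 of 7042) reached its window. The Lef1 window was less exceptional, since 13.1% of tiles of 270 kb (1192 of 9133) reached its cover, beside a median of 0.963%. Between 36.2 and 40.9% of tiles held no region, depending on their size.

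**Figure D1:**
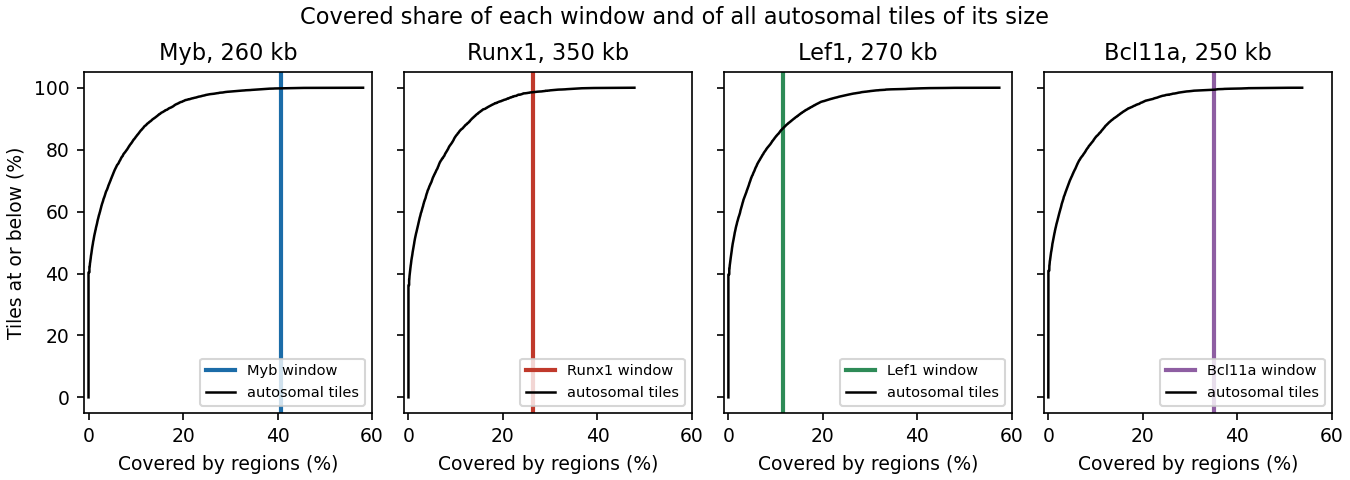
Share of bases covered by H3K4me1 regions (x axis, percent) in each window (coloured line) and in all autosomal tiles of the same size (black curve, percent of tiles at or below that cover). The Myb, Runx1 and Bcl11a lines, at 40.8, 26.2 and 35.0%, meet the curve near its top, and the Lef1 line, at 11.6%, lies where 13.1% of tiles still reach it.

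Chromosomes differ in how much H3K4me1 they carry, so each window was also ranked among the tiles of its own chromosome. On chromosome 10, 2 of 499 tiles reached the Myb window. On chromosome 11, the median tile was covered to 3.61%, and 6 of 486 tiles (1.23%) reached the Bcl11a window. On chromosome 16, 6 of 280 tiles (2.14%) reached the Runx1 window. On chromosome 3, where the median tile was covered to 0.293%, 54 of 591 tiles (9.14%) reached the Lef1 window. The order of the windows was thus the same within chromosomes as across the autosomes.

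The number of regions per Mb separated Lef1 from the others less clearly than cover did. It was 92.3 in the Myb window (exact Poisson 95% interval 59.1 to 137.3), 88.6 in the Runx1 window (60.2 to 125.7), 84.0 in the Bcl11a window (52.0 to 128.4) and 40.7 in the Lef1 window (20.3 to 72.9). The intervals cover counting error only, treat regions as independent, and overlap between all 4 windows. At least as many regions as in the window were found in 1.71% of tiles for Myb, 1.52% for Runx1, 2.94% for Bcl11a and 19.8% for Lef1.

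Taken over a whole stretch of the same size on each side, marking was lower outside the Myb and Bcl11a windows. It did not stop at their right edges, where a domain ran on for 27.1 kb past the Myb window and 27.4 kb past the Bcl11a window. The Myb window was covered to 40.8%, the stretch of the same size before it to 5.98% and the one after it to 9.52%. The Bcl11a window was covered to 35.0%, with 9.81% before it and 7.45% after it. The Runx1 window, at 26.2%, had 7.84% before it and 16.7% after it. The Lef1 window, at 11.6%, was about as covered as the stretch before it, at 12.3%, and more so than the stretch after it, at 2.39%. In the protein-coding gene order of GRCm38.p6, taken for names only, Myb lies between Ahi1 and Hbs1l, Runx1 between Clic6 and Setd4, Lef1 between Rpl34 and Hadh, and Bcl11a between Papolg and Fancl. Which regions lie in these neighbours was not analysed here.

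**Figure D2:**
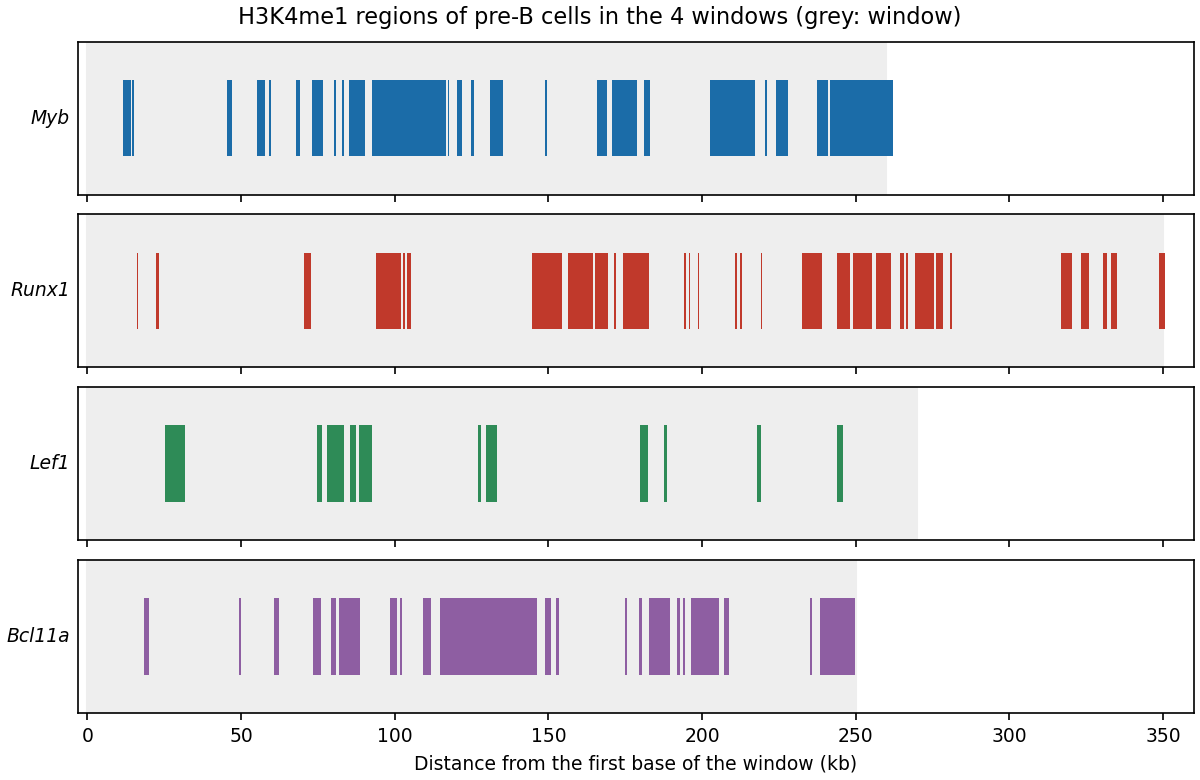
H3K4me1 regions (coloured blocks, drawn to scale) along each window (grey), by distance in kb from the first base of the window. The Myb and Bcl11a windows each hold at least 1 block longer than 20 kb, the Runx1 window holds several of 6 to 10 kb, and the Lef1 window holds 11 scattered blocks.

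The Myb window (chromosome 10, 20700000 to 20960000) held 24 regions, and 3 long ones carried much of its H3K4me1. The longest was 24032 bases long (20792621 to 20816652) and stood 35th from the top of the deposited list. The second, of 20722 bases (20941487 to 20962208), ran past the end of the window. The third was 14650 bases long (20902472 to 20917121). The next ones, 8224 bases (20870556 to 20878779) and 5242 bases (20785145 to 20790386), were shorter than 10000 bases. These 5 regions made up 67.2% of the summed length of the 24. The longest of the remaining 19 regions had 4221 bases.

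Along the Myb window the mark came in 2 large groups with a sparser middle. In steps of 50 kb from its start, cover was 9.56, 43.9, 49.3, 26.8 and 62.8%, and the last 10 kb were covered throughout. Joining regions with gaps of up to 12500 bases gave 5 domains. The one with the most covered bases ran from 20902472 to 20987065, 27.1 kb past the window, with 9 regions over 47.9 kb. Nearly equal to it was a domain of 13 regions from 20745537 to 20835360, with 47.7 kb covered. They ranked 179th and 180th among the 20379 domains of the genome by covered bases. Between them lay a domain of 3 regions from 20865923 to 20883094, with 13.4 kb covered and ranked 1850th. A lone region of the shortest length (20848920 to 20849420) lay there too. The gaps that parted all of these were 13559, 16502 and 19377 bases, so the split depends on the limit of 12500 bases. The longest unmarked stretch, 30.4 kb from 20715134 to 20745536, lay near the left end of the window. The rule describes the window as holding Myb and enhancers on the side of Hbs1l; which of these domains holds the gene start was not analysed here.

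The Bcl11a window (chromosome 11, 23900000 to 24150000) held the longest region of all 87. That region spanned 31400 bases (24014757 to 24046156), stood 55th in the deposited list, and alone made up 35.9% of the summed length of the 21 regions. In steps of 50 kb, cover was 4.50, 28.7, 72.8, 30.2 and 38.7%. The next longest were 11460 bases (24138323 to 24149782), 9254 bases (24096311 to 24105564), 6924 bases (24082782 to 24089705) and 6748 bases (23981841 to 23988588). None of the other 16 exceeded 2661 bases, so lengths in this window fell into a few long regions and many short ones.

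The 21 Bcl11a regions formed 4 domains. The domain around the longest region ran from 23949369 to 24053302, held 11 regions with 53.1 kb covered, and ranked 139th of 20379, the highest rank of any domain in the 4 windows. It was followed by a domain of 7 regions from 24074999 to 24108753 (20.4 kb covered) and by one of 6 regions from 24135090 to 24177372 (22.4 kb covered), which went on for 27.4 kb past the window. The longest unmarked stretch, 29.3 kb from 23920117 to 23949368, separated the first, lone region from the rest.

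The Runx1 window (chromosome 16, 92550000 to 92900000) had the most regions but no dominant one. Its longest region was 9811 bases long (92694602 to 92704412), and no region reached 10000 bases. The next were 8744 bases (92724124 to 92732867), 8296 bases (92643892 to 92652187), 8237 bases (92706434 to 92714670) and 6464 bases (92782568 to 92789031). These 5 made up 44.9% of the summed length. The top 5 made up 67.2% in the Myb window (24 regions), 72.1% in the Lef1 window (11) and 75.2% in the Bcl11a window (21). A top 5 is a smaller part of the 31 Runx1 regions, so a lower share follows in part from the count. The other 26 had at most 6181 bases, and 8 of them were at the shortest length of the list.

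Runx1 marking fell into 7 domains, with a pair of larger ones side by side. A domain of 11 regions from 92694602 to 92769609 had 34.7 kb covered and ranked 366th, and a domain of 9 regions from 92782568 to 92831468 had 32.9 kb covered and ranked 408th. They were 13.0 kb apart, just over the limit of 12500 bases, so that the count of 7 depends on that limit. In steps of 50 kb, cover was 2.81, 16.8, 19.1, 55.0, 26.2, 43.2 and 20.6%. The longest unmarked stretch, 47.3 kb from 92573322 to 92620572, lay towards the left end of the window.

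The Lef1 window (chromosome 3, 130730000 to 131000000) held 11 regions, none of them at the shortest length. The longest was 6666 bases long (130755220 to 130761885) and lay alone, 42.9 kb before the next. A cluster of 4 regions followed from 130804745 to 130822760, with 13.3 kb covered; it was the domain with the most covered bases in the window and ranked 1863rd of 20379. The next longest regions, of 5411 bases (130807981 to 130813391) and 4432 bases (130818329 to 130822760), belonged to this cluster. The next were 3647 bases (130859623 to 130863269) and 2413 bases (130909952 to 130912364). The other 6 ranged from 866 to 2058 bases.

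Marking in the Lef1 window thinned from left to right after that cluster. In steps of 50 kb, cover was 13.3, 26.7, 9.03, 7.03 and 6.5%, and the last 20 kb had none. The longest unmarked stretch was 46.7 kb (130863270 to 130909951). The median gap between neighbours was 14.9 kb in this window, beside 8.87 kb over the whole list. No gap lay near that median, since each of the 10 gaps had at most 5130 bases or at least 24606. The median of so few gaps therefore does not show that neighbours lay farther apart than in the list. In the other windows neighbours lay closer together than in the list: the median gap was 2.82 kb in the Myb window, 2.81 kb in the Bcl11a window and 2.34 kb in the Runx1 window.

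Long regions made up a larger share of each window than of the list as a whole. Regions of at least 5000 bases numbered 5 of 24 in the Myb window (20.8%, Wilson 95% interval 9.24 to 40.5%), 7 of 31 in the Runx1 window (22.6%, 11.4 to 39.8%), 5 of 21 in the Bcl11a window (23.8%, 10.6 to 45.1%) and 2 of 11 in the Lef1 window (18.2%, 5.14 to 47.7%). Over the whole list the share was 8.92%, which is below each interval except that of the Lef1 window. Intervals treat neighbouring regions as independent and are too narrow where they are not. Regions of at least 10000 bases numbered 3 of 24 in the Myb window (Wilson 4.34 to 31.0%) and 2 of 21 in the Bcl11a window (2.65 to 28.9%), beside 2.15% of the list. The Runx1 window had 0 of 31, with a Wilson upper bound of 11.0%. A limit of 3 counts for a count of 0 puts it at 9.68%. For the Lef1 window, with 0 of 11, the Wilson bound was 25.9% and the limit of 3 counts 27.3%.

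**Figure D3:**
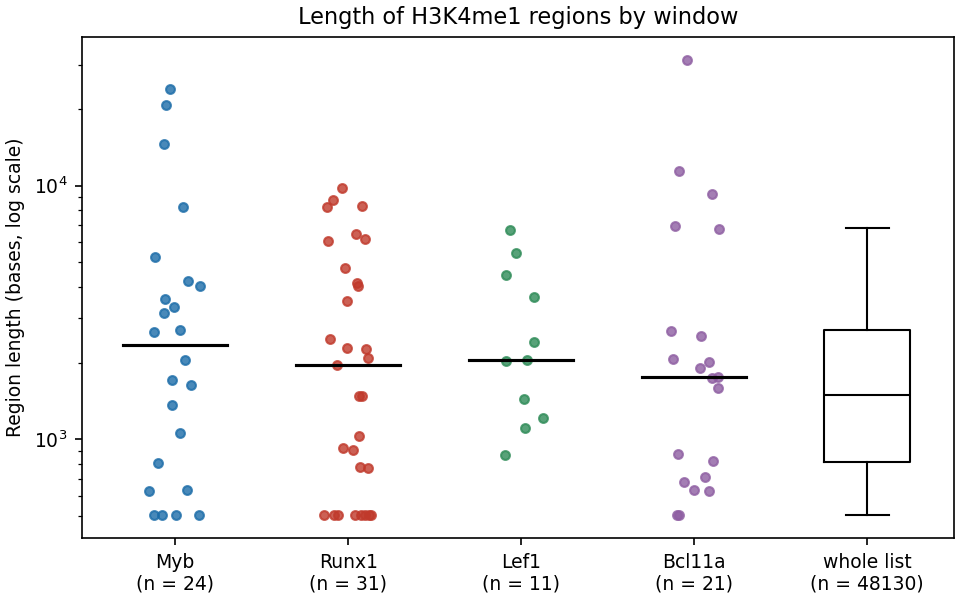
Length of every H3K4me1 region (points, bases on a log axis) in each window with its median (line), beside the whole list (box from the 25th to the 75th percentile, whiskers at the 5th and 95th). Medians lie between 1753 and 2346.5 bases in the windows, against 1497 for the list, and the regions over 20 kb belong to the Myb and Bcl11a windows.

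At the other end of the length range, the windows held shares of the shortest regions that counting error could not tell from the list. The shortest regions of the list were 1 base over the peak size of 500 bases set in the caller. In the Runx1 window 8 of 31 had this length (25.8%, 13.7 to 43.2%), in the Myb window 4 of 24 (16.7%, 6.68 to 35.9%) and in the Bcl11a window 2 of 21 (9.52%, 2.65 to 28.9%). In the Lef1 window 0 of 11 did, with the same bounds as above. Over the whole list the share was 14.3%. It lay inside the other 3 intervals, and under the Lef1 bounds. Median lengths were 2346.5 bases in the Myb window, 2058 in the Lef1 window, 1969 in the Runx1 window and 1753 in the Bcl11a window, and 1497 over the list.

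Neighbouring regions were often parted by a short unmarked dip. Gaps under 2.5 kb made up 16 of 30 in the Runx1 window (53.3%, Wilson 36.1 to 69.8%), 9 of 23 in the Myb window (39.1%, 22.2 to 59.2%), 8 of 20 in the Bcl11a window (40.0%, 21.9 to 61.3%) and 4 of 10 in the Lef1 window (40.0%, 16.8 to 68.7%). Over the whole list 26.0% of gaps were that short. Only the Runx1 interval lay above the list share, but the intervals of the 4 windows overlapped. Under 5 kb the Runx1 share was not the highest: it was 63.3%, against 65.2% in the Myb window, 65.0% in the Bcl11a window and 40.0% in the Lef1 window, with 38.3% for the list. Gaps under 1000 bases numbered 6 in the Runx1 window, 3 in the Myb window, 1 in the Lef1 window and 1 in the Bcl11a window. Per the file header, the caller was set to a minimum distance of 1000 bases between peaks of 500 bases. The smallest gap was 517 bases in the Myb window, 551 in the Runx1, 799 in the Bcl11a and 950 in the Lef1 window. Narrower dips may have been joined by the caller, so these counts do not cover them. In the Runx1 window, a dip of 799 bases separated a region of 6043 bases (92819442 to 92825484) from one of 2269 bases (92826284 to 92828552). In the Bcl11a window a dip of the same size, 799 bases, separated regions of 1917 bases (23979125 to 23981041) and 6748 bases (23981841 to 23988588). These dips were picked after their values were seen, and whether a gene start lies in either was not analysed here.

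The order of the deposited list gave a further, coarse reading of the regions. The list was sorted neither by position nor by length, and the header does not state its order. Even so, 94.0% of neighbouring lines were in order of chromosome name and position, and the list broke into 2897 runs of that order, as many short lists set end to end would. Longer regions stood higher, with a Spearman rank correlation of -0.973 between place and length across regions of this library, which are not replicates. HOMER, the caller, commonly writes regions from the highest score down, but this was not recorded for this list, and place is given here only as the authors' order. To reduce the part of length, each member was compared with all regions within 10% of its length. The percentage of these that stood lower in the list was taken. Long regions are rarer than short ones, so this band can hold more shorter than longer regions. The value to be had from length alone can then differ from 50, and it was not computed. Runs held up to 368 lines, and within a run place follows the genome and not a rank, so small differences in place carry no meaning.

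**Figure D4:**
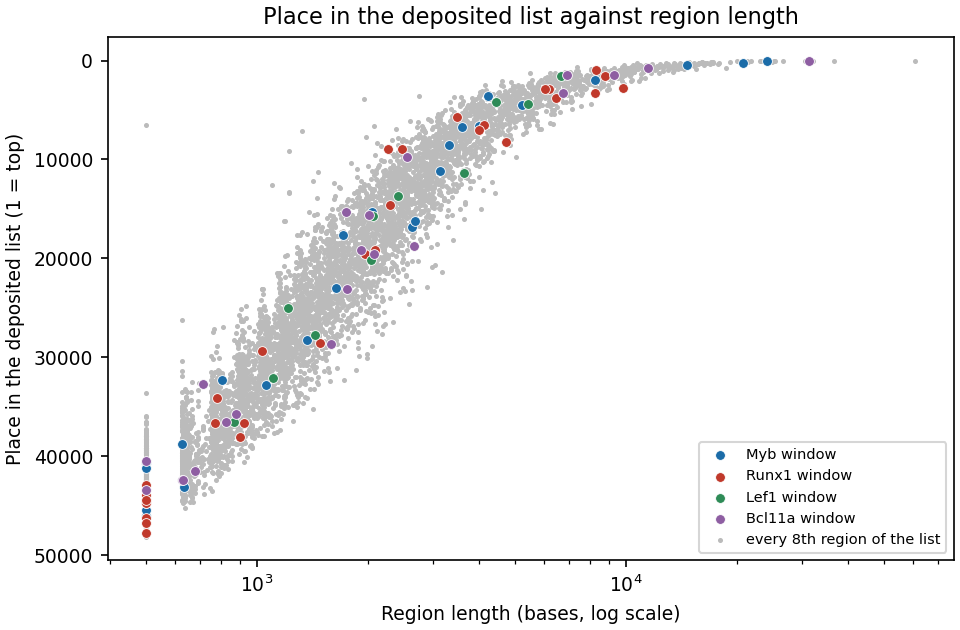
Place in the deposited list (y axis, 1 at the top) against region length (x axis, bases on a log scale) for the regions of each window (coloured) and every 8th region of the list (grey). The coloured points lie within the grey band, with medians of 40.3 to 48.9% of like-length regions standing lower.

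By that measure, the members of each window were spread on both sides of 50. The median percentage of like-length regions that stood lower was 42.2 in the Myb window, 48.9 in the Runx1 window, 40.3 in the Lef1 window and 42.5 in the Bcl11a window. It exceeded 50 for 11 of 24, 13 of 31, 5 of 11 and 8 of 21 regions in that order of windows. Nothing particular to the windows is read from these counts, since the value to be had from length alone was not computed.

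Single regions departed from this middle in both directions. In the Runx1 window the region of 2269 bases beside the 799-base dip stood at place 8928, above 98.0% of the 4082 regions of like length. The one of 8296 bases stood at place 982, above 92.1% of its like. The longest Runx1 region, of 9811 bases, stood lower than most of its length, at place 2788 and above only 2.43%, and its neighbour of 8237 bases was above only 5.33%. In the Myb window, the region of 24032 bases stood above 88.9% of 45 regions of like length, and a region of 4221 bases (20831140 to 20835360) above 94.8%. The 20722-base region of the same window stood above 18.3%. In the Lef1 window, the lone longest region stood above 92.6%, at place 1575. In the Bcl11a window, the 31400-base region stood above 28.6% of only 14 regions of like length, and the region of 6924 bases above 90.2%. Apart from the 5 longest regions of each window, those named here were picked after their values were seen.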

How the data were processed

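ChIP-seq for H3K4me1 and an input library were made from pre-B cells, 1 library each. Bowtie 0.12.9, HOMER 4.7 and build mm9 were used, per the submitters' processing notes. Regions were called with findPeaks in histone style against input, with 500-base peaks stitched, at least 26 tags per peak and 4-fold over input, per the file headers. The score deposited by the authors is 1 for every region, so lengths, positions and list order were used. Lengths and positions reflect this calling: weak marking under the threshold is missing. The sources used here do not give the depth of the input.

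Regions overlapping each window were taken, and cover was clipped at window edges. Tiles ran from the first base to the last region of each autosome. Gaps of up to 12500 bases were stitched. Wilson and exact Poisson intervals are at 95% and cover counting error only; tags without molecular identifiers are not independent molecules. Named were the 5 longest regions, the longest gap and the domain with most covered bases per window. The members and lists were chosen with earlier results of these data known. The motifs, the list order and the stretches beside each window were added after the regions were seen. Gene positions on mm9 were not used here. The interval code was tested on simulated regions and gave 0 errors in 207 checks. Python 3.11.15, numpy 2.4.6, pandas 2.3.3, scipy 1.17.1 and matplotlib 3.10.9 were used.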

Additional observations from a re-analysis of the deposited data

How the results depend on the processing

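Of 60 alternatives, 27 left a value within its counting interval or a count within 1.5 times, and 33 moved it. Intervals for cover took each base as independent, so they were narrow and every alternative on cover counted as moved. Intervals for shares of few regions were wide: the Lef1 share of long regions counted as unmoved at 42.9%, against 18.2%. Some alternatives changed a threshold, as for region length, gap length or stitching, and could move a value in only 1 direction. The tally therefore follows interval width and the choice of alternatives as well as the size of a shift. The order of the windows by cover (Myb, Bcl11a, Runx1, Lef1) held in each alternative on cover that was run. No paired analysis was possible because each group had 1 library. For the same reason no replicate could be left out. Values below follow the order Myb, Runx1, Lef1, Bcl11a. With regions of at least 1000 bases, cover was 39.3, 24.1, 11.3 and 32.8%, and 19 regions were counted in the Runx1 window and 13 in the Bcl11a window. With windows widened by 50 kb on each side, cover was 31.6, 22.8, 11.5 and 30.2%. The percent of tiles reaching the window was 0.401, 2.14, 9.14 and 1.23% within the own chromosome, and 0.336, 2.31, 21.6 and 1.10% among tiles with at least 1 region. Stitching over 5 kb gave 9 domains for Myb, 12 for Runx1 and 8 for Bcl11a, and over 25 kb gave 2 for Myb and 4 for Runx1. At 25 kb the large groups of the Myb window and the middle between them fell into the same domain. Regions of at least 10000 bases were 0.0% in the Runx1 window, 0.0% in the Lef1 window and 9.52% in the Bcl11a window, beside 2.15% of the list. Regions under 1000 bases were 38.1% in the Bcl11a window, beside 32.4% of the list. Gaps under 1 kb made up 13.0, 20.0, 10.0 and 5.0%, beside 11.9% of the list, and rest on 3, 6, 1 and 1 gaps. Gaps under 5 kb made up 65.2, 63.3, 40.0 and 65.0%, beside 38.3% of the list, so the Runx1 share was the highest under 2.5 kb and 1 kb and not under 5 kb. After joining regions under 2.5 kb apart, 26.7, 33.3, 42.9 and 30.8% reached 5000 bases, beside 19.3% of the joined list. These shares rest on fewer regions than before joining, and no interval was computed for them. Whether they exceed the list share beyond counting error was not tested. The depth of 1 library and the calling threshold limit what a gap means: an unmarked stretch held no called region, which does not show that the mark was absent.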
